A study of Mus musculus with 8 samples.

Results

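The PGC-1 coactivators and the transcription factors that drive mitochondrial biogenesis were examined as 10 genes: Ppargc1a, Ppargc1b, Pprc1, Perm1, Esrra, Esrrb, Esrrg, Nrf1, Gabpa and Tfam. They were chosen by name from the 55487 genes of the deposited table, and all 10 had a mean of at least 10 counts, as did 16498 genes in all. The libraries came from 8 male C57BL/6J mice aged 10 weeks, and they form 1 group. Both hindlimbs of each mouse were held in casts for 8 days. During that time they were injected into the peritoneum 2 times a day with K14Q MOTS-c, a form of the mitochondria-derived peptide MOTS-c with an amino acid substitution, to a total of 15 mg/kg/day. The sample labels name vastus lateralis muscle, whereas the design text and the methods name gastrocnemius, and the muscle is therefore called skeletal muscle here. Libraries of mice without the cast or without the peptide were not analysed here, so no effect of the cast or of K14Q MOTS-c can be read from these values. What the data give is the level of each gene, its spread between mice, and how the genes varied together.

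PGC-1α, the product of Ppargc1a, does not bind DNA itself but is recruited to promoters by transcription factors, where it raises transcription. Its partners include the estrogen-related receptors (Esrra, Esrrb, Esrrg) and the nuclear respiratory factors NRF1 and GABP, which bind genes of the respiratory chain and of the mitochondrial transcription machinery. TFAM is encoded in the nucleus and imported into mitochondria, where it packages mitochondrial DNA and starts its transcription. Perm1 is a muscle gene induced by PGC-1 and the estrogen-related receptors. In skeletal muscle this network is known for its response to exercise and its fall with disuse.

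Short stretches before or around the starts of 5 genes are shown because each holds a motif of a factor of this network. Promoter windows from RefSeq (GRCm38.p6), running from 250 bases before to 50 bases after each start, were found for 9 of the 10 genes, in 14 windows, and not for Ppargc1b. The motifs searched, on both strands, were AAGGTCA (the core of the site of the estrogen-related receptors), TGACG (the core of cAMP response elements), CCGGAAG (the ETS site that GABP can bind) and TGCGCA (the core of an NRF1 site). In each sequence, read 5′ to 3′ on the strand of the gene, capitals mark the motif or its reverse complement.
Perm1 promoter, chr4:156215680-156215776, plus strand, estrogen-related receptor site: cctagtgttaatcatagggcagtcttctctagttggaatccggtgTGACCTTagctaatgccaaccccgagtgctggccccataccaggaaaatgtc
Ppargc1a promoter, chr5:51567727-51567819, minus strand, cAMP response element core: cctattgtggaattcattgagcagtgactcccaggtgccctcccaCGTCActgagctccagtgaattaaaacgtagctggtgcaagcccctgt
Tfam, chr10:71238074-71238102, minus strand, ETS site: cctgccgcggaCCGGAAGtccgggcttcc
Gabpa, chr16:84835020-84835048, plus strand, ETS site: gagggtaagtgCTTCCGGgtccctcagct
Esrra promoter, chr19:6921814-6921884, minus strand, NRF1 core: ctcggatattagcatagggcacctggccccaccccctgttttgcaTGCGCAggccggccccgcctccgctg
The Perm1 match began 202 bases before the RefSeq start, and AAGGTCA was present in 4.72% of all 32851 windows. The Ppargc1a match began 49 bases before the start, and TGACG was present in 20.8% of windows. The ETS sites of Tfam and Gabpa began 47 and 93 bases before their starts, within the gene as GENCODE M21 draws it, and 8.86% of windows held CCGGAAG. The match of Esrra began 31 bases before its start, and 7.76% of windows held TGCGCA. Besides these, TGACG was found in the Esrrb window, and none of the 4 motifs in the windows of Pprc1, Esrrg and Nrf1. These are matches of letters, and no binding was measured.

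The libraries held 23985356 to 33012497 counts, and the values below are counts divided by the authors' size factor for each library, called normalized counts. Each of the 28 pairs of libraries differed by more than sampling noise, with a chi-square per degree of freedom of 15.0 to 110, so none repeated another. The mRNAs encoded by mitochondrial DNA took 12.31% to 18.3% of the counts. The libraries of mice 3 and 4 were the most alike, with a chi-square per degree of freedom of 15.0 to each other. To the others they had 43.5 to 110, which overlaps the 19.9 to 91.6 of pairs of the other 6 mice. Mouse 5 was at 43.5 or more and mouse 8 at 40.3 or more from every other library. Mice 3 and 4 had the lowest shares of mitochondrially encoded mRNAs (13.12% and 12.31%, against 14.56% or more in the others). They also had the lowest summed levels of fast fibre genes (2042255 and 2236218 normalized counts, against 2915287 or more). Relations between genes are therefore also given without both mice, a setting added after the data were seen, in which 6 mice remain. All 8 markers of skeletal muscle had at least 10 counts on average, and their summed level ran from 1999571 to 4012196 normalized counts. The fast myosin heavy chain Myh4 had 1461400 ± 422000 normalized counts (SD, n = 8), Myh1 222264 ± 28100, Myh2 108298 ± 24200 and the slow Myh7 6061 ± 1820. These myosin values are per gene and were not divided by length.

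Perm1, Ppargc1a and Ppargc1b were the most variable of the 10 genes. Ppargc1a, on chromosome 5 (51454250 to 51567726, minus strand), had normalized counts of 1190, 1293, 1594, 1624, 2903, 1092, 1722 and 1422 in mice 1 to 8, with a mean of 1605 ± 569 (SD, n = 8). Mouse 5 was 2.05 times the mean of the other 7 mice, which lay between 1092 and 1722, and without it the mean was 1420. Perm1, on chromosome 4 (156215868 to 156221307, plus strand), had 1654, 1343, 1211, 1041, 3040, 1403, 1830 and 1143 normalized counts, with a mean of 1583 ± 644 (SD, n = 8). The same mouse was the highest, at 2.21 times the mean of the others, and without it the mean was 1375. Both genes thus had 1 mouse far above the other 7, which for Perm1 ran from 1041 to 1830.

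Ppargc1b, which encodes PGC-1β, was much lower, with 48.2 at the lowest, 104 at the median and 127 at the highest, and a mean of 94.3 ± 33.3 normalized counts (SD, n = 8). Its values were graded without a single extreme mouse, with 119 to 127 in mice 1, 2, 5 and 6, 89.4 in mouse 7, 73.1 in mouse 3, and 51.7 and 48.2 in mice 4 and 8. Counting error alone gives Ppargc1b a coefficient of variation of 10.4%, against the 35.3% observed. Pprc1, the PGC-1-related coactivator that responds to growth signals, was steady, with 471 at the lowest, 542 at the median and 626 at the highest, and a mean of 546 ± 55.6 (SD, n = 8). Mouse 5, the highest for Ppargc1a, Ppargc1b and Perm1, was the lowest for Pprc1. The annotation places 177 bases of Pprc1 exons under exons of the opposite-strand gene Ldb1. Whether counting used strand is not given in the sources used here, so reads from such shared bases cannot be told apart.

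Of the nuclear receptors, Esrra encodes ERRα, the main partner of PGC-1α on genes of oxidative metabolism. It had 575 at the lowest, 738 at the median and 897 normalized counts at the highest, and a mean of 728 ± 93.4 (SD, n = 8). Esrrg, which encodes ERRγ and is enriched in oxidative muscle, had 529, 740 and 828 as its lowest, median and highest values, and a mean of 718 ± 113. The ranges of Esrra and Esrrg overlapped before length was taken into account. Esrrb, which encodes ERRβ, was near the lower end of what these libraries measure well, with 24.9, 52.5 and 77.0 as its lowest, median and highest values and a mean of 49.8 ± 15.0. Esrrb rested on 23 to 84 counts per library, and counting error gives it a coefficient of variation of 14.2% against the 30.0% observed. Esrra shares 164 exon bases with Trmt112 on the opposite strand and with a microRNA gene.

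The nuclear respiratory factors and Tfam varied little between mice. Nrf1 had 252 normalized counts at the lowest, 320 at the median and 333 at the highest, and a mean of 308 ± 28.5 (SD, n = 8). Gabpa, which encodes the DNA-binding subunit of GABP, had 750, 1066 and 1171 as its lowest, median and highest values and a mean of 1016 ± 142. Mouse 8 held its lowest value and mice 1 to 5 were all between 1063 and 1171. Tfam had 792, 904 and 1003 as its lowest, median and highest values and a mean of 903 ± 81.8, the smallest relative spread of the 10 genes at 9.06%. Nrf1 here is the nuclear respiratory factor and not Nfe2l1, which is sometimes given the same name.

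**Figure D1:**
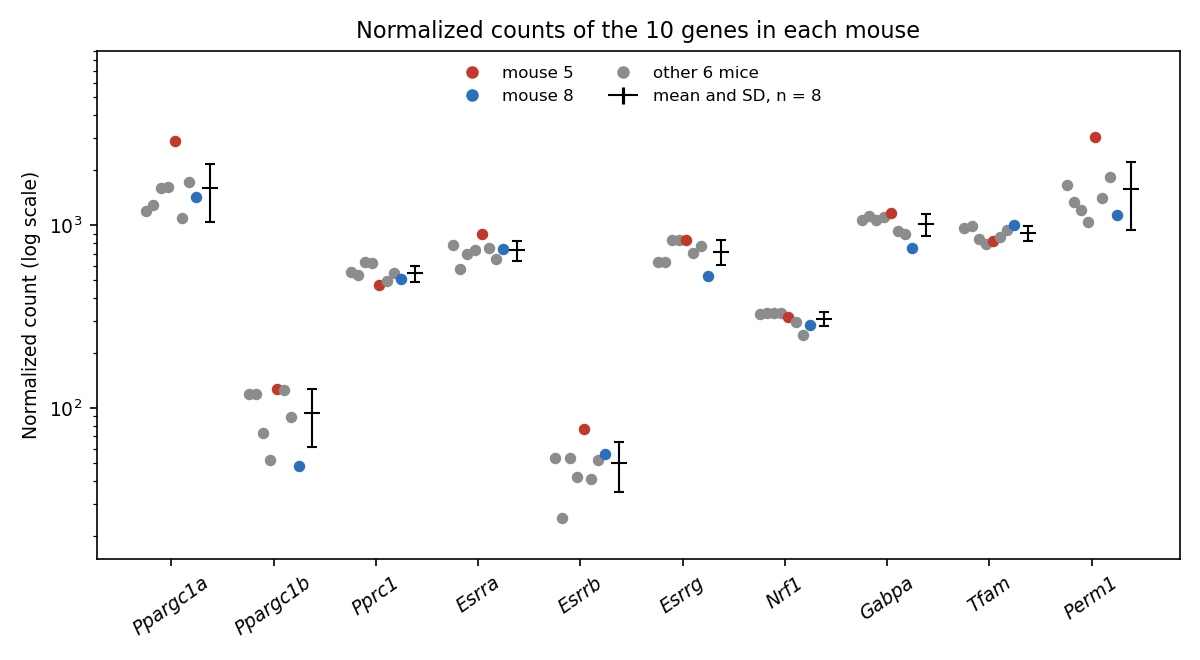
Normalized counts (vertical axis, log scale) of the 10 genes in each of the 8 mice, with mouse 5 in red, mouse 8 in blue and the other mice in grey; the bar beside each gene is the mean and SD. Mouse 5 stood above the rest for Ppargc1a (2903) and Perm1 (3040) and was the lowest for Pprc1 (471).

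Mouse 5 was the highest of the 8 mice for 7 of the 10 genes, namely Ppargc1a, Ppargc1b, Esrra, Esrrb, Esrrg, Gabpa and Perm1. Over all 16498 genes, mouse 5 was the highest for 15.9%. The lead was small for several of the 7: Esrrg had 828 in mouse 5 and 825 in the next mouse, and Ppargc1b had 127 and 126. The gap to the next mouse, as a share of the whole range, passed the critical value of Dixon's test for Ppargc1a (0.652) and Perm1 (0.605). Among all genes tested, mouse 5 stood apart in this way at the upper end for 1.51%, and any mouse at either end for 6.07%. Mouse 5 also had the deepest library, with 33012497 counts, and the highest summed level of the 6 blood markers, at 28346 normalized counts where the lowest was 7066 and the median 10506. The part of depth and of blood in these values was not tested. In bulk muscle, fewer cells of a type and less RNA per cell cannot be told apart. Mouse 8 held the lowest value for 3 of the 10 genes, Ppargc1b, Esrrg and Gabpa, and for 20.7% of all genes.

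To set levels of different genes side by side, normalized counts were divided by the summed exon length of each gene in GENCODE M21. Perm1 was then the highest, with 406 ± 165 normalized counts per kb (SD, n = 8), followed by Ppargc1a with 243 ± 86.3, Tfam with 204 ± 18.4, Gabpa with 179 ± 25.0 and Esrra with 166 ± 21.3. Below these came Esrrg with 116 ± 18.3, Pprc1 with 86.9 ± 8.84, Nrf1 with 30.0 ± 2.78, Ppargc1b with 23.6 ± 8.34 and Esrrb with 8.24 ± 2.47 per kb. Neighbours in this order were compared within mice by an exact sign-flip permutation test of log2 per-kb values, two-sided, adjusted over the 9 pairs. In 5 pairs the upper gene was higher in 8 of 8 mice, with an adjusted exact p = 0.0141, which rests on the smallest p that 8 mice can give. On the scale of summed exon length, these were Perm1 over Ppargc1a, Esrra over Esrrg, Esrrg over Pprc1, Pprc1 over Nrf1, and Ppargc1b over Esrrb. Pairs that were not neighbours, such as Ppargc1a and Esrra, were not compared. Among Ppargc1a, Tfam, Gabpa and Esrra no neighbours were separated, which does not show that their levels were equal. Their adjusted exact p-values were 0.359 for Ppargc1a over Tfam (higher in 4 of 8 mice, mean log2 difference 0.20 ± 0.51), 0.131 for Tfam over Gabpa (6 of 8, 0.20 ± 0.31) and 0.359 for Gabpa over Esrra (6 of 8, 0.10 ± 0.27). Nrf1 and Ppargc1b were not separated either, with an adjusted exact p = 0.117 and Nrf1 higher in 6 of 8 mice.

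**Figure D2:**
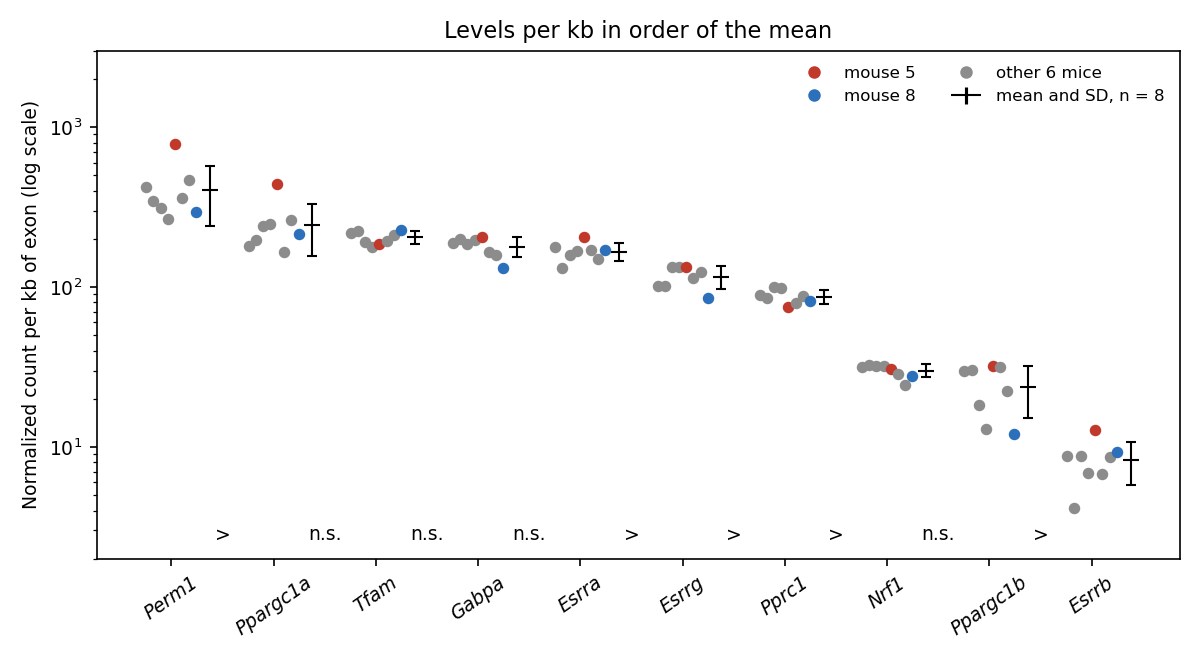
Normalized counts per kb of exon (vertical axis, log scale) in the 8 mice, in order of the mean, with the mean and SD beside each gene, mouse 5 in red and mouse 8 in blue. The sign between neighbours is > where the upper gene was higher with an adjusted exact p of 0.0141 and n.s. where the pair was not separated, as for Ppargc1a, Tfam, Gabpa and Esrra.

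The order depends on which transcripts are taken as the gene. With the length of the longest transcript, Esrra moved to the second place with 292 normalized counts per kb, behind Perm1 with 406. With the coding length, Tfam, whose coding sequence is short, came first with 1240 per kb. Perm1 with 654 was then behind Gabpa and Ppargc1a, Pprc1 with 111 below Nrf1 with 192, and Ppargc1b with 30.5 below Esrrb with 36.6. The separated pairs Perm1 over Ppargc1a, Pprc1 over Nrf1 and Ppargc1b over Esrrb thus had the reverse order of means. Esrra stayed above Esrrg in the mean (575 and 522) but was higher in only 4 of 8 mice. Esrrg stayed above Pprc1 in the mean under each length. Esrrb and Ppargc1b held the last 2 places under each of the 3 lengths.

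Within each family, 1 member dominated or shared the lead, on the scale of summed exon length. Ppargc1a was 10.5 times Ppargc1b per kb, with a range of 5.24 to 19.0 over the mice, and 2.69 times Pprc1, with a range of 2.04 to 5.87. Ppargc1b was 0.256 times Pprc1. Among the receptors, Esrra was 20.9 times Esrrb (16.0 to 31.9) and 1.44 times Esrrg (1.19 to 1.99), and Esrrb was 0.0691 times Esrrg. Each of these 6 ratios lay on one side of 1 in 8 of 8 mice, with an adjusted exact p = 0.00781 by the sign-flip permutation test. The ratios move with the length used. With the coding length, Ppargc1a was 22.5 times Ppargc1b and 5.84 times Pprc1, and Esrra was 1.11 times Esrrg (0.914 to 1.52), higher in 4 of 8 mice with an adjusted exact p = 0.188, while with the longest transcript Esrra was 2.2 times Esrrg. The other 5 ratios kept their side of 1 in 8 of 8 mice under each of the 3 lengths. The highest Ppargc1a over Pprc1 ratio was that of mouse 5.

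The spread between mice was compared with that of genes of like abundance, using gene-wise dispersions from edgeR against its abundance trend. The dispersion was above the trend for 5 of the 10 genes, of which Esrrg only marginally (0.025 against 0.0249), and for 29.3% of all genes. Perm1 had 4.67 times the trend, Ppargc1a 3.61 times and Ppargc1b 3.06 times. Esrrb was at 1.42 times. Nrf1 (0.183 times), Tfam (0.281) and Pprc1 (0.333) lay far below it, and Esrra (0.608) and Gabpa (0.79) less so. A coefficient of variation over 20% was seen for 4 of the 10 genes, Ppargc1a, Ppargc1b, Esrrb and Perm1, and for 37.2% of all genes. The medians were 14.9% over the 10 genes and 16.5% over all genes. Without mouse 5, the coefficient of variation went from 35.5% to 16.8% for Ppargc1a and from 40.7% to 20.5% for Perm1, while that of Ppargc1b was 35.3% with and 36.9% without it.

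To ask which of the 10 genes varied together, Pearson's r of log2(normalized count + 1) was computed over the 8 mice for the 45 pairs, with an exact permutation over all 40320 pairings, two-sided. No pair passed after Benjamini-Hochberg adjustment (smallest adjusted p = 0.473), also with Spearman's rho, and 3 pairs had an unadjusted exact p under 0.05. Esrra and Esrrb varied in the same direction (r = 0.83, exact p = 0.021, rho = 0.55, exact p = 0.171). That relation rested on the extreme mice, since r was -0.18 without the 2 mice farthest from the median of Esrra. Nrf1 and Gabpa had r = 0.72 (exact p = 0.0456) and rho = 0.71 (exact p = 0.0576), and r = 0.71 without the 2 farthest mice. Esrrg and Tfam ran opposite to each other (r = -0.86, exact p = 0.0107, rho = -0.90, exact p = 0.00456, r = -0.76 without the 2 farthest mice), but r was -0.23 (exact p = 0.586) when counts were scaled by library totals in place of the authors' size factors. Against the authors' factors, scaling by totals shifted the median of all genes by -0.13 to 0.21 on the log2 scale between mice.

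Ppargc1a and Perm1, the 2 genes with a high mouse 5, had r = 0.67 (exact p = 0.0915, rho = 0.21, exact p = 0.619), and r was -0.17 without mouse 5. Ppargc1b and Perm1 had r = 0.65 (exact p = 0.0642) and rho = 0.76 (exact p = 0.0368), with r = 0.40 without the 2 mice farthest for Ppargc1b. Ppargc1a and Ppargc1b had r = -0.01. Without mouse 5, 1 of the 45 pairs had an unadjusted exact p under 0.05, and without mouse 8, 5 pairs had one. Without mice 3 and 4, 3 pairs had one, of which only Esrra with Esrrb (r = 0.88, exact p = 0.0333) was among the 3 above. Esrrg with Tfam had r = -0.81 (exact p = 0.0528) and Nrf1 with Gabpa r = 0.69 (exact p = 0.128), while Ppargc1b with Gabpa had r = 0.87 (exact p = 0.0181) and Esrrg with Perm1 r = 0.85 (exact p = 0.0292).

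**Figure D3:**
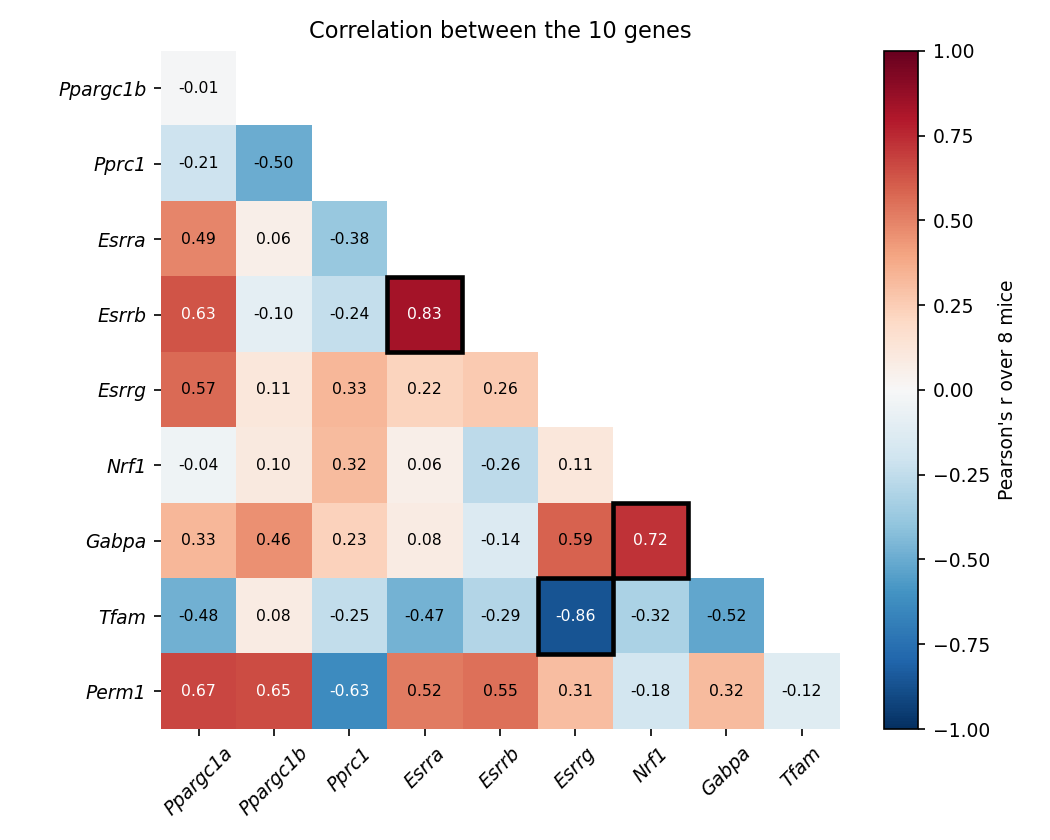
Pearson's r of log2(normalized count + 1) over the 8 mice for the 45 pairs of genes, in colour from -1 (blue) to 1 (red). Black frames mark the 3 pairs with an unadjusted exact p under 0.05, Esrra with Esrrb (0.83), Nrf1 with Gabpa (0.72) and Esrrg with Tfam (-0.86), none of which passed after adjustment.

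Each of the 10 genes was also set against the other 16497 genes, with particular regard to lists of upstream regulators, partner factors, mitochondrial functions, fibre types and other cell types. For none of the 10 did a gene pass after adjustment over all genes (smallest adjusted exact permutation p = 0.0511, for Gabpa). For Gabpa alone this changed with the processing, to 395 genes with library totals, 8 with a minimum of 10 counts in every library and 9 with trends on GC content and length removed. With 8 mice, 1 gene at the smallest possible p would adjust to 0.409, and 9 such genes would be needed for a call. The counts below therefore use the unadjusted exact p under 0.05, beside the share of all genes that had it in the same direction. Where counts with library totals are given, the share of all genes with a positive relation under that scaling was 6.35% for Ppargc1a, 10.2% for Esrra, 18.2% for Esrrg, 21.5% for Nrf1 and 19.5% for Gabpa, and at most 4.25% for Ppargc1b, Esrrb, Tfam and Perm1. The share with a negative relation under it was 0.83% to 3.89%. In the 6 mice other than 3 and 4, under the authors' factors, 2.11% to 9.9% of all genes had a positive and 1.67% to 7.07% a negative relation with each of the 10. For counts with 1 mouse left out, or with trends on GC content and length removed, no such share is given. The genes of a list vary together within a mouse, so these counts describe the lists and are not tests of them.

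No relation of Ppargc1a with genes of oxidative metabolism was detected across these 8 mice. Of 27 genes of the TCA cycle and the respiratory chain, none had an unadjusted exact p under 0.05 with it, against 4.3% of all genes with positive and 3.89% with negative r, and the median r was 0.07 against 0.03 over all genes. Of 12 genes of mitochondrial import and folding, 4 had a positive relation and 1 a negative one. Hspa9, the mitochondrial HSP70 that pulls proteins through the inner membrane, had r = 0.91 (exact p = 0.0032) and rho = 0.88 (exact p = 0.00724), with r = 0.78 without the 2 farthest mice. Tomm20, a receptor of the outer membrane, had r = 0.87, and Timm17a, a subunit of the inner membrane channel, r = 0.82 (exact p = 0.00397 and 0.0112; rho = 0.74 and 0.69, exact p = 0.0458 and 0.0694). The chaperone Trap1 went the other way (r = -0.89, exact p = 0.00206, rho = -0.81, exact p = 0.0218). With library totals the list had 3 positive and no negative relations, and a median r of 0.35. Without mouse 5, no gene of the list had a positive relation with an exact p under 0.05, against 4 with it, while r was 0.73 for Hspa9 (exact p = 0.0589), 0.78 for Tomm20 (exact p = 0.0569) and 0.60 for Timm17a (exact p = 0.162). The median r of the list was 0.12 with that mouse and 0.48 without it.

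**Figure D4:**
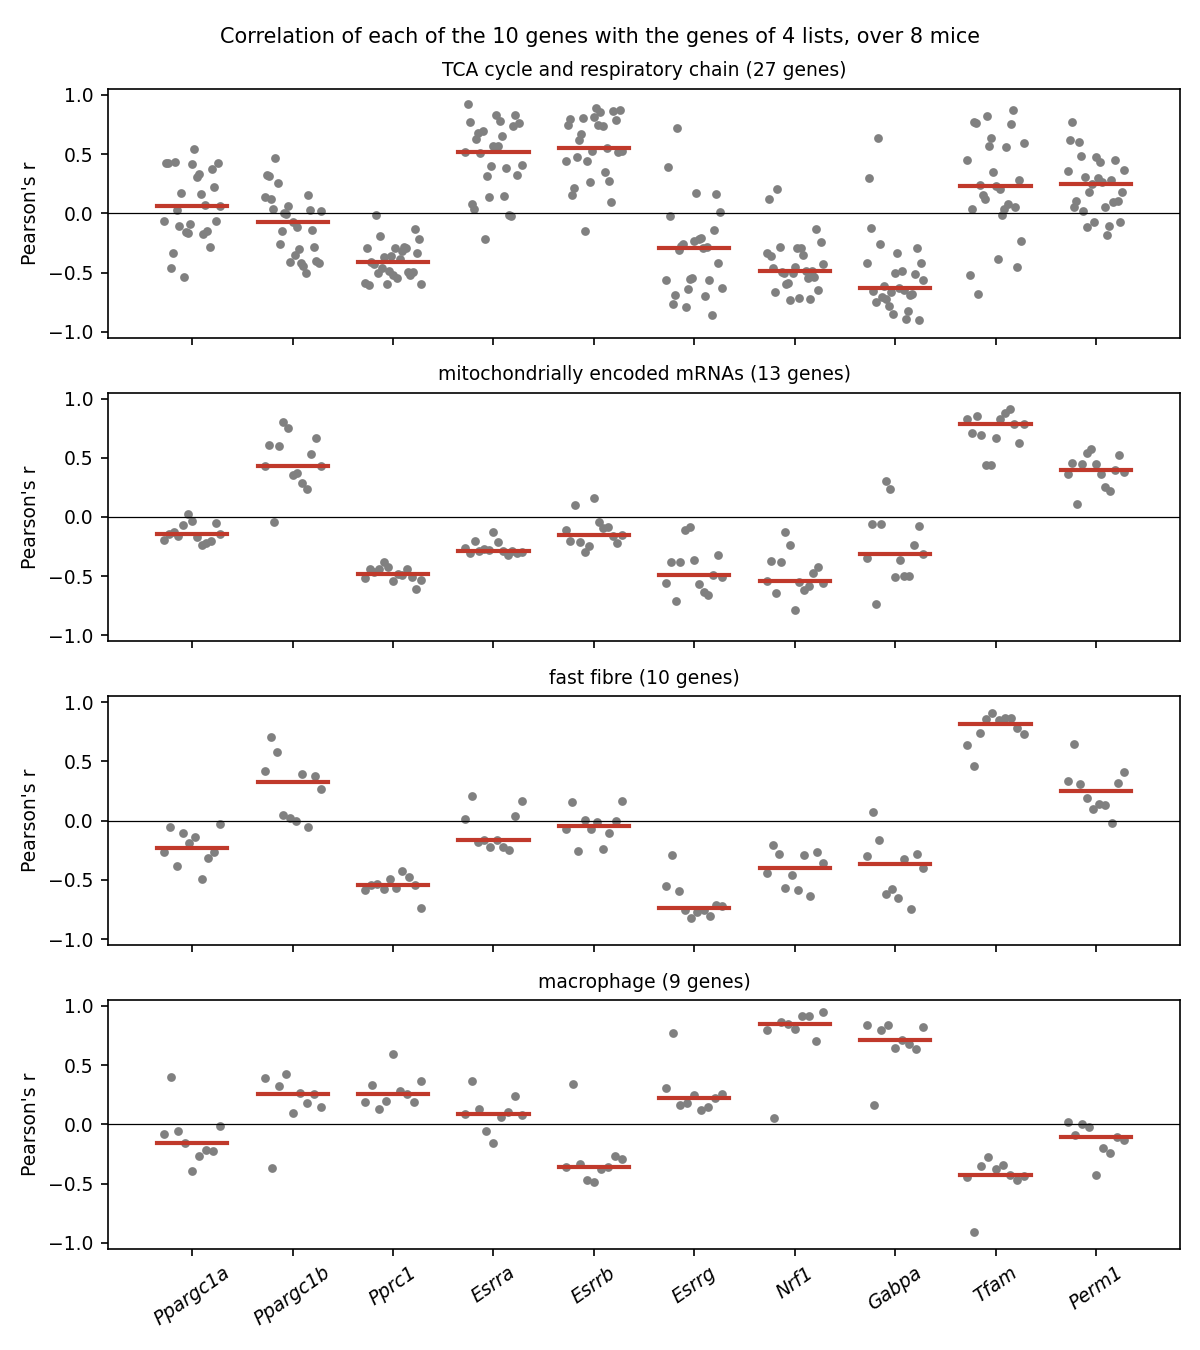
Pearson's r (vertical axis) over the 8 mice between each of the 10 genes (horizontal axis) and the genes of 4 lists, 1 point per gene of the list, with the median as a red bar. The medians for the 27 TCA cycle and respiratory chain genes were 0.52 for Esrra and 0.55 for Esrrb against 0.07 for Ppargc1a, and Tfam had medians of 0.79 for the mitochondrially encoded mRNAs and 0.81 for the fast fibre genes under the authors' size factors, which were -0.10 and 0.07 with library totals.

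Esrra and Esrrb had mostly positive relations with the same 27 genes. For Esrra, 7 of 27 had a positive r with an unadjusted exact p under 0.05, against 1.95% of all genes, and the median r was 0.52 against 0.01. Atp5b, a catalytic subunit of ATP synthase, had r = 0.83 (exact p = 0.00662), Idh3a, a subunit of isocitrate dehydrogenase, r = 0.77 (exact p = 0.0218), and Ndufv1 of complex I r = 0.83 (exact p = 0.0225). Their rho was 0.64 (exact p = 0.0962), 0.74 (exact p = 0.0458) and 0.57 (exact p = 0.151), and r without the 2 farthest mice was 0.64, 0.26 and 0.09. The count was 1 without mouse 2, 3 without mouse 5, 3 without mice 3 and 4 (median r 0.62), and 14 with library totals.

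For Esrrb, 11 of 27 had a positive r with an unadjusted exact p under 0.05, against 2.28% of all genes, with a median r of 0.55 against 0.00. Atp5a1, a further ATP synthase subunit, had r = 0.86 (exact p = 0.0061) and rho = 0.76 (exact p = 0.0368). Ndufb5 and Ndufv1 of complex I had r = 0.82 and 0.89, and Slc25a3, the mitochondrial phosphate carrier, r = 0.88 (exact p = 0.00965, 0.00975 and 0.0106; rho = 0.81, 0.62 and 0.88, exact p = 0.0218, 0.115 and 0.00724). Without the 2 farthest mice, r was 0.58 for Atp5a1, 0.83 for Ndufb5, 0.23 for Ndufv1 and 0.54 for Slc25a3. Mouse 2, with 24.9 normalized counts of Esrrb and the lowest summed level of the list (220626, against a median of 259541), weighed on the count, which was 1 without that mouse, 7 without mouse 5 and 8 without mice 3 and 4.

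Esrrg differed in sign from the other receptors over this list. Its median r with the 27 genes was -0.29, with 4 negative and 1 positive relation at an unadjusted exact p under 0.05, against 4.12% and 4.66% of all genes. Whether it differs from Esrra in this was not tested. The negative count was 0 without mouse 8, 1 without mouse 3 or 4, 2 without mouse 5 or 6, 7 without mouse 7 and 11 without mouse 2, and with library totals it was 1 and the median r turned to 0.26. Without mice 3 and 4 it was 0, with a median r of -0.25. Cox7a1, a muscle form of a complex IV subunit, had r = -0.86 (exact p = 0.0061, rho = -0.79, exact p = 0.0279). With 10 genes of fast fibres Esrrg had a median r of -0.74, and 6 of 10 were negative with an unadjusted exact p under 0.05. The closest were the troponin Tnni2 (r = -0.82, exact p = 0.0126, rho = -0.76, exact p = 0.0368) and the calcium buffer Pvalb (r = -0.81, exact p = 0.0179, rho = -0.79, exact p = 0.0279), with r = -0.58 and -0.59 without the 2 farthest mice. The median kept this sign with library totals, at -0.83 with 8 of 10 genes, and the count was 2 without mouse 3 or mouse 4, and 3 without mouse 2, 6 or 8. Without both mice 3 and 4, it was 0 and the median r -0.61. Ppara, the fatty acid receptor PPARα, was higher in mice with more Esrrg (r = 0.89, exact p = 4.96e-05, rho = 0.98, exact p = 0.000397, adjusted p = 0.273 over all genes, r = 0.61 without the 2 farthest mice).

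Tfam had positive relations with mRNAs made from mitochondrial DNA relative to the authors' size factors, and not relative to library totals. Of the 13 mRNAs, 7 had a positive r with an unadjusted exact p under 0.05, against 6.49% of all genes, with a median r of 0.79 against -0.06, while with library totals the count was 0 and the median r -0.10. The cytochrome oxidase mRNA mt-Co3 had r = 0.91 (exact p = 0.00553), rho = 0.83 (exact p = 0.0154) and r = 0.85 without the 2 farthest mice. The others with the smallest p were mt-Nd3 (r = 0.85, exact p = 0.00345, rho = 0.86, exact p = 0.0107), mt-Co2 (r = 0.87, exact p = 0.00722, rho = 0.83, exact p = 0.0154) and mt-Nd1 (r = 0.82, exact p = 0.0127, rho = 0.74, exact p = 0.0458). The count was 3 without mouse 4 and 12 without mouse 8. Without mice 3 and 4, it was 0 and the median r 0.58, and with trends on GC content and length removed, it was 3 and the median r 0.56. Of the fast fibre genes, 8 of 10 had a positive relation to Tfam, with a median r of 0.81, led by Tnni2 (r = 0.91, exact p = 0.00402, rho = 0.86, exact p = 0.0107), and again 0 of 10 and a median r of 0.07 with library totals. Their count was 5 without mouse 4, and 3 with a median r of 0.72 without mice 3 and 4.

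The share of each library taken by mitochondrially encoded mRNAs had r = 0.80 with Tfam (exact p = 0.0229, rho = 0.76, exact p = 0.0368, r = 0.78 without the 2 farthest mice), and that of the 10 genes with the most counts r = 0.78 (exact p = 0.0315, rho = 0.67, exact p = 0.0831). Both had an adjusted p = 0.26 over 30 such tests, the 10 genes against 3 measures of the libraries. Ppargc1b and Perm1 had r = 0.73 (exact p = 0.0279, rho = 0.62, exact p = 0.115) and r = 0.78 (exact p = 0.0347, rho = 0.69, exact p = 0.0694) with the total counts, with the same adjusted p. The part of library composition in the relations of Tfam was not tested beyond the change of scaling.

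Nrf1 and Gabpa had positive median r with the markers of macrophages, fibroblasts, adipocytes, endothelium and tendon. Schwann cell markers had a median r of -0.56 with Nrf1 and -0.18 with Gabpa, and satellite cell markers of -0.25 and -0.17. For Nrf1, 8 of 9 macrophage markers had a positive r with an unadjusted exact p under 0.05, against 7.11% of all genes, with a median r of 0.84 against -0.01, and the count was 5 without mouse 7. Of 8 fibroblast markers 4 had such a relation (median r 0.69), and 3 of 8 adipocyte markers, of which 1 was left without mouse 2 and 5 had one without mouse 4 (median r 0.59). Of 8 endothelial markers 2 had one (median r 0.65), 1 without mouse 1, 2, 3, 5 or 8, 5 without mouse 7 and 4 with library totals. Of 6 tendon markers 1 had one (median r 0.59), 2 without mouse 3 or 6, and 0 without mouse 7 or 8 and with library totals. For Gabpa, 5 of 9 macrophage, 6 of 8 endothelial, 4 of 8 fibroblast, 3 of 6 tendon and 4 of 8 adipocyte markers had a positive relation, against 11.7% of all genes. Without mouse 8 these counts for Gabpa were 2, 3, 2, 1 and 0. The endothelial count was also 3 without mouse 2, the fibroblast count 2 without mouse 7, the tendon count 5 without mouse 5, and the macrophage count 8 with library totals. With trends on GC content and length removed, a setting added after the data were seen, the counts for Gabpa were 2 macrophage, 0 endothelial, 3 fibroblast, 2 tendon and 3 adipocyte markers, and those for Nrf1 6 macrophage, 3 fibroblast, 2 adipocyte, 1 endothelial and 0 tendon markers. Without mice 3 and 4, the counts for Gabpa were 4 macrophage, 3 endothelial, 2 fibroblast, 3 tendon and 7 adipocyte markers, and those for Nrf1 6, 2, 3, 1 and 5. In the same 6 mice, 5 of 6 tendon and 4 of 8 adipocyte markers were positive with Ppargc1b, against 0 and 1 in all 8. There, 4 of 10 fast fibre and 3 of 27 TCA cycle and respiratory chain genes were negative with Ppargc1b, against 0 in all 8. Their medians went from 0.32 to -0.42 and from -0.08 to -0.58. Of all genes, 6.85% were positive and 4.73% negative with Ppargc1b in these 6 mice. The summed level of the macrophage markers ran from 2516 to 6279 normalized counts over the mice, the endothelial from 5366 to 7956, the fibroblast from 10294 to 19186, the tendon from 905 to 6158 and the adipocyte from 3677 to 6411. The macrophage marker Adgre1 had 38.3 to 122 normalized counts and the endothelial Pecam1 1343 to 1904, and no listed marker of these 5 cell types was at 0 in all libraries. The part of other cell types in the levels of Nrf1 and Gabpa was not tested.

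Under the authors' size factors, Gabpa ran opposite to genes of the respiratory chain. Of the 27 TCA cycle and respiratory chain genes, 7 had a negative r with an unadjusted exact p under 0.05, against 7.64% of all genes, and the median r was -0.63 against 0.00. The closest was Atp5j (r = -0.90, exact p = 0.00191, rho = -0.90, exact p = 0.00456), whose gene lies on the opposite strand beside Gabpa and shares 397 exon bases with it. Cox4i1 and Cox5b of complex IV had r = -0.89 and -0.82, and Ndufa9 of complex I r = -0.85 (exact p = 0.00454, 0.0118 and 0.00898; rho = -0.76, -0.81 and -0.71, exact p = 0.0368, 0.0218 and 0.0576). The count was 0 without mouse 8, 11 without mouse 1, 4 without mice 3 and 4, and 2 with library totals, where the median r was -0.10. Among upstream regulators, Prkaa2, the main catalytic AMPK subunit of muscle, had r = 0.90 with Gabpa (exact p = 0.00104, rho = 0.98, exact p = 0.000397, r = 0.82 without the 2 farthest mice), with Med1, Ncor1 and Creb1 between 0.75 and 0.84. In all, 4 of 21 upstream regulators were positive, against 11.7% of all genes, and 9 with library totals. With trends on GC content and length removed, 1 was positive and 2 were negative, and Med1, Ncor1 and Creb1 had r = 0.44, 0.28 and 0.26. Among 16 partner factors, 4 were positive for Gabpa, against the same 11.7% of all genes (Pparg, Yy1 and Ncoa1 with r = 0.78, 0.76 and 0.74 the nearest) and Foxo1 was negative with r = -0.73. The positive count of partner factors was 2 without mouse 1 or 4, 1 without mouse 8, 7 with library totals and 1 with the trends removed.

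Ppargc1b and Perm1 had negative relations with transcripts that mark denervation and atrophy. For each, 4 of 9 such genes had a negative r with an unadjusted exact p under 0.05, against 4.61% of all genes for Ppargc1b and 3.06% for Perm1, with medians of -0.67 and -0.47. Hdac4, which is also on the list of upstream regulators, was among the 4 for each. It had r = -0.73 with Ppargc1b (exact p = 0.0366, rho = -0.55, exact p = 0.171) and r = -0.72 with Perm1 (exact p = 0.0472, rho = -0.79, exact p = 0.0279). The list also includes the ubiquitin ligases Fbxo32, with 45049 to 84735 normalized counts over the mice, and Trim63, with 32456 to 60044. For these ligases only the levels are given, not their relations. The count was 1 without mouse 4 for both genes, for Perm1 also 1 without mouse 3 and 2 without mouse 1, 2, 7 or 8, and 1 for each without mice 3 and 4 or with library totals. Perm1 also had positive relations with the thyroid hormone receptor Thra (r = 0.89, exact p = 0.00397, rho = 0.81, exact p = 0.0218, r = 0.84 without the 2 farthest mice) and the retinoid receptor Rxra (r = 0.84, exact p = 0.0064, rho = 0.74, exact p = 0.0458, r = 0.57 without them), 2 of the 16 partner factors, against 3.5% of all genes. Without mouse 5 both had r = 0.75 and the count was 0 (exact p = 0.0575 and 0.0524), and with library totals it was 0 as well, with 1 negative relation. Under the authors' size factors, Pprc1 had a positive relation with 1.76% of all genes and a negative one with 1.61%, and with at most 1 gene of any list in a direction. With library totals it had positive relations with 7 of 21 upstream regulators, 4 of 16 partner factors, 8 of 17 genes of mitochondrial DNA replication and transcription, 5 of 18 fuel genes, 3 of 12 import genes and 6 of 9 denervation genes, and negative ones with 5 of 13 mitochondrially encoded mRNAs. Under that scaling 19.7% of all genes had a positive relation with Pprc1 and 0.83% a negative one. Without mice 3 and 4, under the authors' factors, 4 of 13 mitochondrially encoded mRNAs and 3 of 10 fast fibre genes were positive with Pprc1, and the medians turned from -0.49 to 0.81 and from -0.54 to 0.48.

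The 17 genes that replicate and transcribe mitochondrial DNA, such as the polymerase Polg and the helicase Twnk, had at most 3 relations in a direction with any of the 10 over the 8 mice under the authors' size factors. Without mouse 8, 4 were positive for Esrrg, against 0 in all 8 mice, and without mouse 2 or 7, 4 were negative for Perm1. With library totals, 8 were positive for Pprc1 and 4 each for Esrrg and Nrf1. Perm1 had 3 negative relations among them, against 3.06% of all genes, with Mterf3, Tfb1m and Tfb2m (r = -0.80, -0.79 and -0.69, exact p = 0.0145, 0.0228 and 0.0439, rho = -0.76, -0.62 and -0.69, exact p = 0.0368, 0.115 and 0.0694), which was 1 without mouse 4, 0 without mice 3 and 4, and 1 with library totals. Ppargc1b had 2 negative relations, against 4.61% of all genes, the nearer with Mterf3 (r = -0.90, exact p = 0.00057, rho = -0.93, exact p = 0.00223, r = -0.80 without the 2 farthest mice), and its count ran from 1 without mouse 4 or 8 to 4 without mouse 6. Tfam had 0 in either direction, but 2 negative ones without mouse 8 and 1 without mouse 5. Of 18 genes of fatty acid use and fuel supply, Perm1 had 2 positive relations, against 3.5% of all genes, with Vegfa (r = 0.79) and the glucose transporter Slc2a4 (r = 0.75). Without mouse 5 these were r = 0.39 and 0.24, and the count was 0 without mouse 5 or mouse 4 and with library totals. Esrra and Esrrb had medians of 0.44 and 0.52 over these 18 genes, with 1 positive relation each, against 1.95% and 2.28% of all genes, Cpt1b (r = 0.72) and Acadvl (r = 0.72), both of mitochondrial fatty acid oxidation. With library totals these counts were 7 and 2. Leaving out 1 mouse at a time gave 0 to 2 for each, with 0 for Esrra without mouse 1, 2, 6 or 7 and for Esrrb without mouse 6 or 8, and r without the 2 farthest mice was 0.45 for Cpt1b and 0.17 for Acadvl. For the 27 TCA cycle and respiratory chain genes, Tfam had 5 positive relations, against 6.49% of all genes, which ranged from 1 without mouse 8 to 12 without mouse 2 and were 0 without mice 3 and 4 and with library totals.

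Slow fibre genes, satellite cell, Schwann cell and blood markers each had at most 1 relation in a direction with any of the 10 genes over the 8 mice under the authors' size factors. Single mice moved this limit. The counts that follow were picked as the larger ones over the omissions of 1 mouse, without the share of all genes in the remaining mice, so they cannot be set against it. Of the 6 blood markers, 5 were negative with Tfam without mouse 4, and 3 were positive with Perm1 without mouse 3. Of the slow fibre genes, 4 were negative with Esrrg without mouse 2 and 3 without mouse 5, 3 with Pprc1 without mouse 1, and 2 were positive with Ppargc1b without mouse 8. Of the Schwann cell markers, 3 were positive with Perm1 and 2 with Esrrg without mouse 5, and 2 were negative with Nrf1 without mouse 1. The blood markers had a median r of 0.69 with Ppargc1a and 0.66 with Esrrg, with 1 of 6 markers positive in each case. Leaving out 1 mouse at a time gave 0 to 4 markers for each of these genes, and without mouse 5 the median for Ppargc1a was 0.29. With library totals, 6 of 6 blood markers were positive for Ppargc1a and 3 of 6 for both Esrrg and Gabpa, and with trends on GC content and length removed, a setting added after the data were seen, 5 of 6 were for Gabpa. Of the 5 genes listed for brown adipocytes 3 were too low to test, and Ucp1 had at most 1 count in a library.

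The genes whose pattern over the 8 mice was most like each of the 10 were ranked by r among protein-coding genes that averaged at least 100 normalized counts. For Ppargc1a these were the kinesin light chain Klc4, the cationic amino acid transporter Slc7a1 and Uhrf1bp1l, each with r = 0.97. For Ppargc1b they were the zinc transporter Slc39a10 (0.96), the histone demethylase Kdm2b (0.93) and the serine racemase Srr (0.92). For Pprc1 they were the glucosyltransferase Poglut1 (0.97), the helicase Ddx41 (0.96) and the repair gene Rad51d (0.94), and for Perm1 Apbb2 (0.98), the lipolysis coactivator Abhd5 (0.96) and the kinesin Kif1b (0.96).

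For the receptors, the nearest to Esrra were the mitochondrial aspartate aminotransferase Got2 (0.97), the carbonic anhydrase Car14 (0.95) and the sarcomere protein gene Klhl41 (0.95). Esrrb had the nuclear envelope gene Sun2 (0.96), Art1 (0.95) and Oxa1l (0.95), which inserts proteins into the inner mitochondrial membrane. Esrrg had the paraspeckle gene Pspc1 (0.97), the proline synthesis gene Aldh18a1 (0.96) and Hsd17b12 (0.96). Nrf1 had Crebl2 (0.97), the myosin Myo1d (0.96) and the NF-κB subunit Nfkb1 (0.96), Gabpa had Gm49320 (0.99), Arhgef12 (0.98) and the sulfatase Sulf1 (0.98), and Tfam had Txndc12 (0.97), the phospholipase Pla2g16 (0.97) and Klhl8 (0.96). These are the extremes of 9718 or 9719 genes ranked over 8 mice, none of them passed after adjustment over all genes, and they are given as a description.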

How the data were processed

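Poly-A RNA of skeletal muscle from 8 mice was sequenced. According to the methods and the submitters' processing notes, reads were checked with FastQC, trimmed with fastp and mapped with STAR to GRCm38.p6, and counted per gene with summarizeOverlaps. The authors deposited 1 table, whose signal is the read count of a gene divided by 1 DESeq2 size factor per library. Dividing by the smallest nonzero value of a library gave whole reads, to within 0.01 of a read, for 100% of values, and these recovered counts served for depth, filters and dispersions. The annotation release, the use of strand and the treatment of reads mapping to several genes are not given in the sources used here. Where genes share bases or have close copies, their counts are uncertain.

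Symbols, places and lengths came from GENCODE M21, which held 55141 of the 55487 identifiers. Atp5o had more than 1 identifier and was left out, which leaves 27 of 28 genes in its list. Genes with a mean of at least 10 recovered counts were tested. Recovered totals were 23985356 to 33012497 counts, so counting error weighs on Esrrb and Ppargc1b most. The reads carry no molecular identifiers, and intervals from counting cover that error only. The mice formed 1 group, so no difference between conditions was tested and the design, which assumed raw counts, was otherwise kept. P-values come from permutations over these mice, of relations between genes or of differences between genes within a mouse. None of them tests the spread between mice. The labels give no batch.

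Relations were Pearson's r of log2(normalized count + 1) with exact permutation, two-sided, and orders within mice used exact sign-flip permutation. Dispersions came from edgeR. The members and lists were chosen with earlier results of these data known. Genes named were the 10 members, the 3 protein-coding genes most like each, the 4 adult myosin heavy chains, defining markers, and up to 4 genes per list and member with the smallest exact p under 0.05. Of these last, the text gives mainly those of lists with at least 4 such genes, a limit set after the values were seen, as were the relations to library measures and the ratios within families. Alternatives were TMM factors, library totals, leaving out each mouse, other lengths, stricter or no count minimums, DESeq2 dispersions, a pseudocount of 5 and Spearman's rho. Removal of trends on GC content and length, and leaving out mice 3 and 4 together, were added after seeing the data. On simulated data for Ppargc1a, 99.0% of 100 genes with a planted factor of SD 0.5 were called at an unadjusted p under 0.05, 61.0% of 100 at SD 0.25, and 4.98% of 16297 without one. The planted factor was the observed pattern of Ppargc1a itself, in genes with at least 100 normalized counts. Noise was independent between genes, at the trended dispersion. Real genes vary together, so these shares hold for the simulated setting only. A gene that the rule names is not reported here. The tools were R 4.3.3 with DESeq2 1.42.0 and edgeR 4.0.16, and Python 3.11.15 with scipy 1.17.1, numpy 2.4.6, matplotlib 3.10.9 and pandas 2.3.3.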

Additional observations from a re-analysis of the deposited data

Results flagged for a closer look

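In 3 values, 1 mouse lay farther from the other 7 than the critical value of Dixon's test for 8 values allows, and it was mouse 5 at the upper end each time. The gap to the next mouse was 0.652 of the whole range for the normalized count of Ppargc1a, 0.605 for that of Perm1, and 0.75 for the per-kb ratio of Ppargc1a to Pprc1. In all, 16 values were examined, the 10 levels and 6 ratios within families, of which chance flags about 1 in 20, or 0.8. The ratio rests on the same Ppargc1a value as the level and is not separate evidence.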

How the results depend on the processing

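No paired analysis was possible because the 8 mice form 1 group. Under the other settings listed above, 170 values of main results stayed within their limits and 27 moved; under the settings added after the data were seen, 16 stayed and 8 moved. With library totals in place of the authors' factors, 5 pairs of members (3 in the main analysis) had an unadjusted exact p under 0.05, 395 genes passed after adjustment, all for Gabpa, where none did before, and the counts of list genes became 14 for Esrra and 2 for Gabpa with the TCA cycle and respiratory chain, and 0 for Tfam with both the mitochondrially encoded mRNAs and the fast fibre genes. A minimum of 10 counts in every library gave 8 adjusted calls, and removing the trends on GC content and length gave 9, all for Gabpa, with 5 pairs of members and 3 mitochondrially encoded mRNAs for Tfam. Without mice 3 and 4 together, the counts were 3 for Esrra and 4 for Gabpa with the TCA cycle and respiratory chain, 0 mitochondrially encoded mRNAs and 3 fast fibre genes for Tfam, and 0 fast fibre genes for Esrrg; 6 mice allow no smaller exact permutation p than 0.00139. Spearman's rho gave 5 TCA cycle and respiratory chain genes for Esrrb and 4 for Gabpa. Leaving out each mouse in turn gave 1 to 5 pairs, and for TCA cycle and respiratory chain genes 1 to 10 for Esrra, 1 to 11 for Esrrb and 0 to 11 for Gabpa. It gave 3 to 12 mitochondrially encoded mRNAs and 5 to 9 fast fibre genes for Tfam, 2 to 6 fast fibre genes for Esrrg, 0 to 4 import genes for Ppargc1a and 5 to 8 macrophage markers for Nrf1. The cause was not tested. In the order per kb of summed exon length, the 5 separated neighbour pairs had the same sign in 8 of 8 mice. Leaving out 1 mouse could therefore not reverse them and is no check on them. Nrf1 over Ppargc1b joined them without mouse 6. Mean levels of the 10 genes moved by less than 1 SD, as they must when 1 of 8 values is left out. Depth limits Esrrb, at 23 to 84 counts per library.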
